A study of Neurospora crassa with 2 samples.

Results

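The reactive oxygen genes of the filamentous fungus Neurospora crassa were examined in WT hyphae kept in constant darkness for 12 hr (DD12) or 20 hr (DD20). The genes were taken by their symbols, and 8 of the 10 listed were found among the 10559 genes of the deposited table: the catalase genes cat-1, cat-2, cat-3 and cat-4, the superoxide dismutase genes sod-1 and sod-2, and the NADPH oxidase genes nox-1 and nox-2. The other 2, sod-3 and sod-4, matched no symbol or synonym in the table or in the RefSeq annotation of assembly NC12, and they were not analysed here. The WT strain of the study is of mating type a and carries bd at both time points, an allele of the signalling gene ras-1. This allele makes conidiation bands visible on race tubes and is known to raise reactive oxygen species. The cultures were grown in glucose medium, and polyA RNA was sequenced. Each time point has 1 column of RPKM values, in which the reads on a gene are divided by the length of its model and by the size of the library, so no replicate error can be given and no p-value was computed. The RNA samples were pools of independent samples made in duplicate, and it is not stated which of these pools a column holds.

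Reactive oxygen species are made and removed by enzymes that act in sequence. NADPH oxidases are membrane enzymes that pass electrons from NADPH to oxygen and release superoxide. Superoxide dismutases turn superoxide into hydrogen peroxide and oxygen, and catalases break hydrogen peroxide down to water and oxygen. In Neurospora these enzymes are best known for their links to growth, to the formation of asexual spores (conidia) and to sexual development.

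The size of the steps between low RPKM values gave a library of 30712952 reads for DD12 and one of 29960356 for DD20. A mean of at least 1 RPKM was reached by 7414 genes, which are called the expressed genes below, and by all 8 of the genes found here. A ratio here is the log2 of the DD20 level over the DD12 level, with 1 RPKM added to each, so that a value above 0 means a higher level at DD20. The added 1 makes the ratios of low genes smaller. The median ratio of the expressed genes was 0.15, and 90% of them lay between -0.70 and 0.68. Genes of the mating type A idiomorph (matA-1, matA-2 and matA-3) were listed at 0 in both columns, and a strain of mating type a carries the other idiomorph. Of the 7 marker symbols of sexual tissue 5 were found, and 2 of these were expressed. The highest was asd-1, with 22.0 RPKM at DD12 and 15.9 RPKM at DD20, above the median of the expressed genes. The other 4 lay between 0.0466 (ccg-4) and 1.59 RPKM (fmf-1) at DD12 and between 0.0478 and 1.65 RPKM (the same genes) at DD20. Their part in the results was not tested.

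The levels of the 8 genes spanned from 2.60 to 572 RPKM. At both time points sod-1 was the highest, cat-3 the next and cat-1 after it, and cat-4 and cat-2 were the lowest. The order between these ends was not the same in the columns. At DD12 it was nox-2, sod-2 and nox-1, whereas at DD20 it was nox-1, nox-2 and sod-2. Both nox genes and sod-2 lay above the median of the expressed genes, which was 11.1 RPKM at DD12 and 12.2 RPKM at DD20, and cat-2 and cat-4 lay below it.

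**Figure D1:**
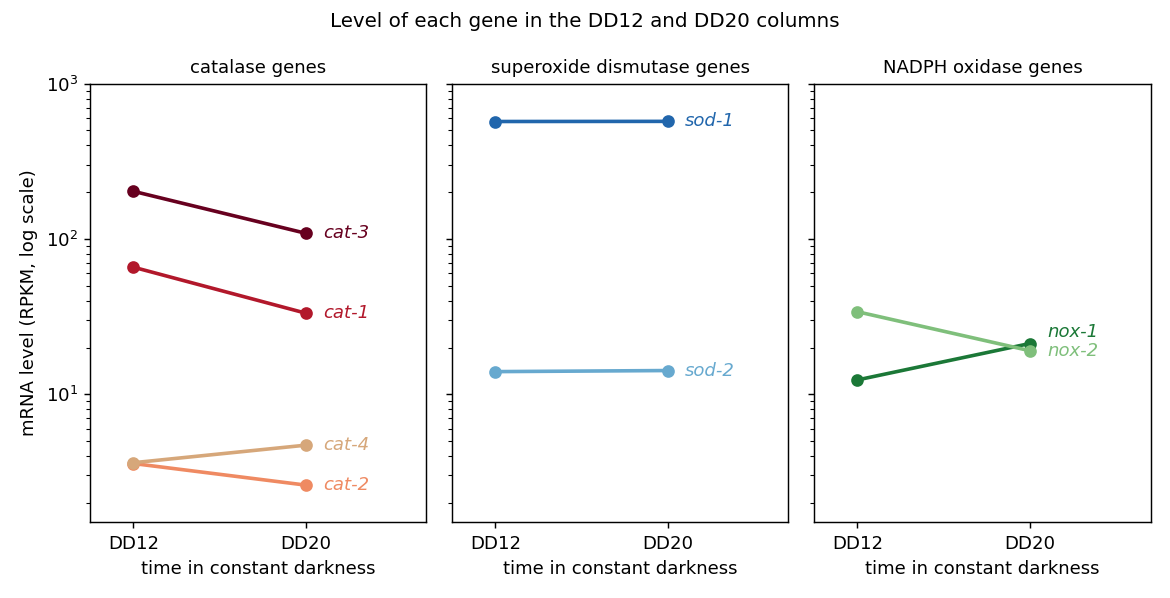
RPKM (log axis) of each catalase, superoxide dismutase and NADPH oxidase gene at DD12 and DD20, with 1 point per column and a line joining the points of a gene. There are no error bars because each time point has 1 column. The lines of cat-3, cat-1 and nox-2 go down, that of nox-1 goes up and crosses nox-2, and those of sod-1 and sod-2 are nearly level.

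The catalase level came almost wholly from cat-3 and cat-1, which encode the large-subunit catalases, and both were lower at DD20. The summed level of the 4 catalase genes was 276 RPKM at DD12 and 149 RPKM at DD20, a ratio of 1.85 between the time points. The catalase of growing hyphae, cat-3, had 203 RPKM at DD12 and 109 RPKM at DD20, which is 1.86-fold higher at DD12. The main catalase of conidia, cat-1, had 65.8 RPKM at DD12 and 33.3 RPKM at DD20, which is 1.98-fold higher at DD12. The log2 ratios were -0.89 for cat-3 and -0.96 for cat-1. Of the expressed genes, 231 had a lower ratio than cat-3 and 188 had a lower ratio than cat-1. For cat-1 the steps gave a gene length of 2870 nt with 5800 reads at DD12 and 2861 reads at DD20. Its log2 ratio without the added 1 was -0.98, with a 95% interval of -1.08 to -0.89. For cat-3 there were 9 lengths that give whole reads, and even the shortest of them, which gives the widest interval, put the ratio at -0.90 with an interval of -1.05 to -0.75. These intervals are exact Clopper-Pearson intervals on reads divided by 2, since both mates of a pair appear to have been counted. They cover counting error only, and the variation between RNA pools is not in them.

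The 2 main catalase genes kept nearly the same proportion to each other. The level of cat-3 was 3.08 times that of cat-1 at DD12 and 3.27 times at DD20. The difference was 0.085 on the log2 scale, with a counting interval of -0.091 to 0.26 that spans 0. A ratio within a column does not depend on how the column was scaled. The share of cat-3 in the summed catalase level was 73.5% at DD12 and 72.8% at DD20, and that of cat-1 was 23.9% and 22.3%. The handling of reads that match more than 1 gene is not given in the sources used here, and cat-1 and cat-3 are related genes, so an exchange of reads between them was not tested.

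The other 2 catalase genes were minor, and cat-2 was lower at DD20 while cat-4 was higher. The bifunctional catalase-peroxidase gene cat-2 had 3.58 RPKM at DD12 and 2.60 RPKM at DD20, from 305 and 216 reads. Its log2 ratio was -0.35, and the counting interval without the added 1 was -0.83 to -0.092. The small-subunit catalase gene cat-4, also named ctt-1, had 3.62 RPKM at DD12 and 4.70 RPKM at DD20, with a log2 ratio of 0.30. There were 3 gene lengths that give whole reads for cat-4. With the longest, 3045 nt, the reads were 339 and 429 and the interval was 0.071 to 0.67, whereas with the shortest it was -0.13 to 0.93 and spanned 0. At DD12 the 2 genes had the same level within counting error, as the ratio of cat-4 to cat-2 was 1.01 with an interval of 0.727 to 1.38. At DD20 cat-4 was 1.81 times cat-2, with an interval of 1.33 to 2.48. Together they made up less than the share of cat-1 at both time points, with 1.30% for cat-2 and 1.31% for cat-4 at DD12 and 1.74% and 3.15% at DD20.

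Conidiation genes were partly lower at DD20 as well, which is given here because cat-1 is abundant in conidia. All 8 marker genes of conidia and conidiating hyphae were found, and 6 were expressed. Of these, 5 had a ratio below 0 and 2 were lower by 2-fold or more, con-6 with a log2 ratio of -1.49 and csp-1 with -1.04. The gene fl had a ratio above 0, at 0.14. The level of con-6 was low, with 6.43 RPKM at DD12 and 1.64 RPKM at DD20. Over all expressed genes, 33.8% had a ratio below 0 and 2.33% were lower at DD20 by 2-fold or more. The median of the 6 markers was -0.57, against 0.15 for the expressed genes. The summed level of the list was 9306 RPKM at DD12 and 7737 RPKM at DD20 and lay mostly on the hydrophobin gene eas, while con-8 and con-13 were below 1 RPKM in both columns. The 4 listed housekeeping genes of vegetative hyphae were all expressed, with 3 ratios above 0, 1 below 0 and a median of 0.20. The gene with the ratio below 0 was gpd-1, at -0.63. Fewer conidiating cells and less RNA per cell cannot be told apart in such samples, and the part of conidiation in the catalase values was not tested.

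**Figure D2:**
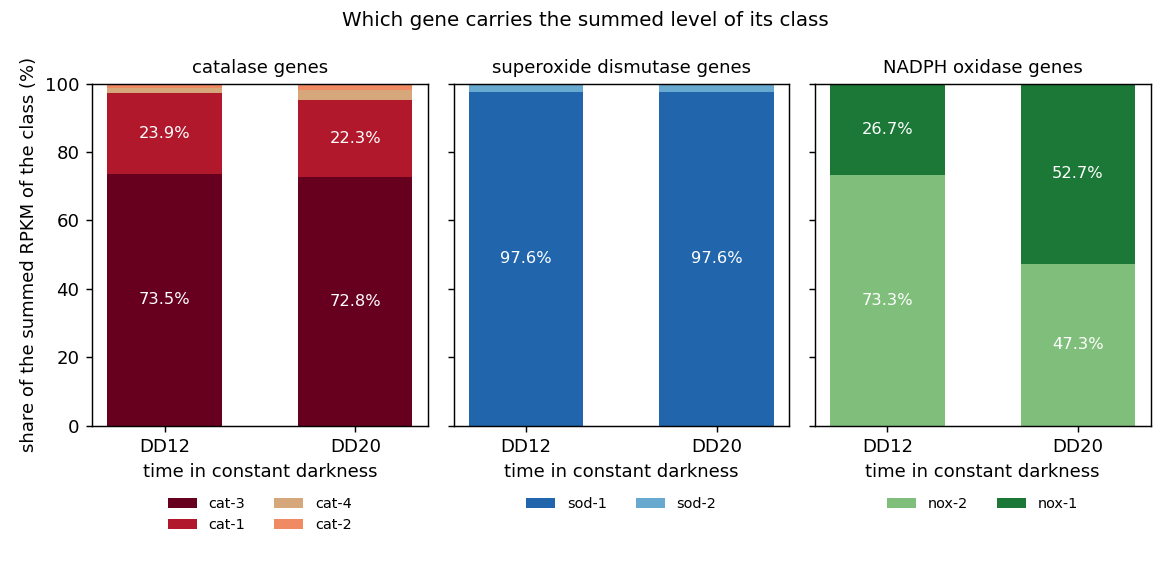
Share (%) of each gene in the summed RPKM of the genes found in its class at DD12 and DD20, as stacked bars. The superoxide dismutase bars leave out sod-3 and sod-4, which were not matched. The share of cat-3 is 73.5% and 72.8% and that of sod-1 is 97.6% at both time points, while nox-1 takes 26.7% at DD12 and 52.7% at DD20.

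Of the 2 superoxide dismutase genes found, sod-1 held most of the summed level, and this sum was nearly equal in the 2 columns. The listed sod-3 and sod-4 were not matched, so the sum and the shares leave them out. The gene of the cytosolic copper-zinc enzyme, sod-1, had 570.4 RPKM at DD12 and 572 RPKM at DD20, ranks 123 and 139 among all genes of the table. Its gene length was 1129 nt, with 19779 reads at DD12 and 19334 reads at DD20. The log2 ratio was 0.0030, and the counting interval of -0.038 to 0.043 spans 0. The gene of the mitochondrial manganese enzyme, sod-2, had 14.0 RPKM at DD12 and 14.2 RPKM at DD20, from 1256 and 1245 reads. The log2 ratio was 0.022, with an interval of -0.14 to 0.18 that also spans 0. The share of sod-1 in the summed level of both genes was 97.6% at each time point, and sod-1 was 40.8 times sod-2 at DD12 and 40.2 times at DD20. Both ratios were below the median ratio of the expressed genes, as 34.2% of these genes had a lower ratio than sod-1 and 35.8% a lower ratio than sod-2. The sign of both depends on the scaling, since with centred ratios they were -0.15 for sod-1 and -0.13 for sod-2.

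As sod-1 was level and the main catalases were lower, the proportion of sod-1 to these catalases was different between the columns. The level of sod-1 was 2.81 times that of cat-3 at DD12 and 5.26 times at DD20, a difference of 0.90 on the log2 scale with a counting interval of 0.75 to 1.06. Against cat-1 it was 8.67 times at DD12 and 17.2 times at DD20, a difference of 0.99 with an interval of 0.89 to 1.09. These are proportions of mRNA levels within a column, and enzyme activity was not measured in these data.

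The NADPH oxidase genes went opposite ways, and the higher of them was not the same at the 2 time points. The gene nox-1, whose product is needed in Neurospora for fruiting bodies and normal hyphal growth, had 12.4 RPKM at DD12 and 21.2 RPKM at DD20, which is 1.72-fold higher at DD20. The gene nox-2, whose product is needed for the germination of sexual spores, had 34.0 RPKM at DD12 and 19.1 RPKM at DD20, which is 1.78-fold higher at DD12. The reads were 1232 and 2062 for nox-1 on a length of 3243 nt, and 2987 and 1635 for nox-2 on a length of 2861 nt. The log2 ratio of nox-1 was 0.73, and 274 of the expressed genes had a higher ratio. That of nox-2 was -0.80, and 279 of the expressed genes had a lower ratio. Without the added 1, the intervals were 0.63 to 0.93 for nox-1 and -0.96 to -0.71 for nox-2.

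The level of nox-2 was 2.75 times that of nox-1 at DD12, and nox-1 was 1.11 times nox-2 at DD20, with a counting interval of 1.01 to 1.22. The proportion of nox-2 to nox-1 thus differed by -1.61 on the log2 scale between the columns, with an interval of -1.80 to -1.42. The summed level of both genes was 46.4 RPKM at DD12 and 40.3 RPKM at DD20, so the sum differed less than either gene. The share of nox-1 in it was 26.7% at DD12 and 52.7% at DD20. RefSeq lists more than 1 transcript for nox-2, and 1 value per gene does not separate them.

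The partners of the oxidases did not follow either gene closely. Of 5 listed symbols, nor-1 and rac-1 were found. The gene nor-1, which encodes the regulatory subunit of both oxidases, had 40.2 RPKM at DD12 and 30.6 RPKM at DD20, a log2 ratio of -0.38. The small GTPase gene rac-1 had 104 RPKM at DD12 and 126 RPKM at DD20, a log2 ratio of 0.28. At both time points nor-1 was higher than either oxidase gene, at 1.18 times nox-2 and 3.25 times nox-1 at DD12, and at 1.60 and 1.44 times at DD20.

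None of the 8 genes reached a difference of 2-fold on the deposited scale, in either direction. The share of all expressed genes past this limit was 0.742% for those higher at DD20 and 2.33% for those higher at DD12. Of the 8 genes, 4 had a ratio above 0 and 4 below 0, with a median of -0.17 against 0.15 for all expressed genes. Of all expressed genes, 66.2% had a ratio above 0 and 33.8% had one below 0. The count for DD12 depends on the scaling because cat-1 and cat-3 lay close to the limit. With ratios centred on the median of all genes, which lowers each ratio by 0.15, cat-1 was at -1.11 and cat-3 at -1.04, and 2 of the 8 genes were then past 2-fold, while 3.45% of all expressed genes were higher at DD12 by this measure.

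**Figure D3:**
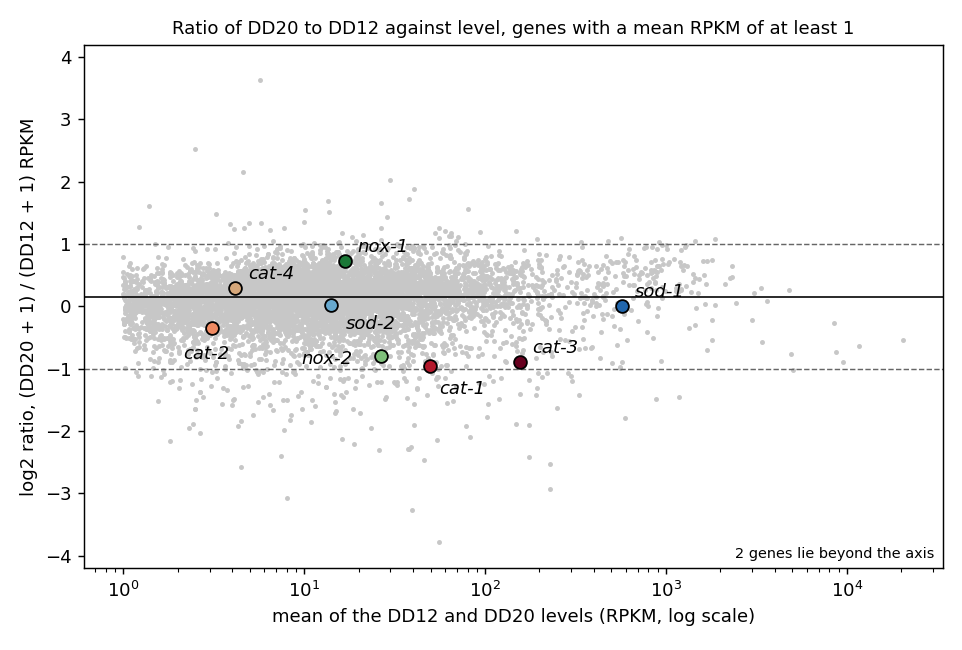
Log2 ratio of DD20 to DD12 against the mean RPKM (log axis) for the 7414 expressed genes (grey points), with the catalase, superoxide dismutase and NADPH oxidase genes in color. Dashed lines mark 2-fold, the solid line marks the median of 0.15, and 2 genes lie beyond the axis. The points of cat-1, cat-3 and nox-2 lie just inside the lower 2-fold line, and nox-1 lies inside the upper one.

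Other genes of oxidative stress were measured by lists of symbols. Of 16 peroxide and thiol enzyme symbols 4 were found, and 0 of these passed 2-fold in either direction. At this limit DD20 was the higher column for 0.742% of the expressed genes, and DD12 for 2.33%. With only 4 genes, a count of 0 is near these shares and does not set the list apart. Among the 4, the highest ratio was that of aod-1, the alternative oxidase gene of mitochondria. It had 13.4 RPKM at DD12 and 23.0 RPKM at DD20, a log2 ratio of 0.74. The thioredoxin reductase gene cys-9 had 28.1 and 40.9 RPKM, a log2 ratio of 0.53, and the lowest ratio of this list was -0.30 for the glutathione S-transferase gene gst-1, which was also its highest gene at DD12 with 40.5 RPKM. The list had a median of 0.39, against 0.15 for all expressed genes, but this rests on 4 of 16 symbols. Another 4 thioredoxin and glutathione S-transferase genes, given under Other observations, all had ratios below 0, with a median of -0.35. Of all expressed genes, 33.8% had a ratio below 0.

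Stress signalling genes were closer to the median of all genes. Of 11 symbols 10 were found and expressed, 0 passed 2-fold in either direction, and the median was 0.23. With 0.742% (higher at DD20) and 2.33% (higher at DD12) of all expressed genes past 2-fold, 0 of 10 is near these shares. The ratios ranged from -0.23 for os-4, a kinase gene of the osmosensing MAP kinase cascade, to 0.38 for msn-1. The MAP kinase gene of this cascade, os-2, was the highest of the list, with 111 RPKM at DD12 and 117 RPKM at DD20. Its target transcription factor gene asl-1, which in Neurospora acts on cat-1, had 22.0 and 22.3 RPKM. The gene ras-1, which the table lists as bd, had 52.9 RPKM at DD12 and 61.7 RPKM at DD20.

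The neighbours of the 8 genes on the chromosome were also read, since strand handling is not given in the sources used here and reads of overlapping genes could not be told apart. In RefSeq assembly NC12, 0 of the 16 adjacent genes overlapped the 8 genes, and 0 of the 16 had a 2-fold difference. Over all expressed genes, 0.742% were higher at DD20 and 2.33% higher at DD12 by 2-fold or more. A count of 0 among 16 is near these shares. Some of the neighbours were at 0 or below 1 RPKM in both columns, where the added 1 keeps a ratio small. The neighbours of nox-1 had log2 ratios of 0.23 (NCU02111) and -0.040 (NCU02109), and those of nox-2 had 0.13 (NCU02289) and 0.32 (NCU10776). For cat-3, one neighbour (NCU00354) was listed at 0 in both columns and the other (NCU00356) had a ratio of -0.23. For cat-1, NCU08790 was listed at 0 in both columns and NCU08792 had a ratio of -0.25. The neighbours of cat-4 had ratios of 0.52 (NCU05170) and 0.58 (pmb), and those of sod-1 had -0.13 (NCU02134) and -0.69 (NCU02132). For cat-2, NCU05769 was listed at 0 in both columns and NCU05771 had a ratio of -0.15. The neighbours of sod-2 had 0.36 (NCU01212) and 0.15 (NCU01214), both below 1 RPKM. The genome build behind the deposited values is not given in the sources used here, so no coordinates are printed.

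**Figure D4:**
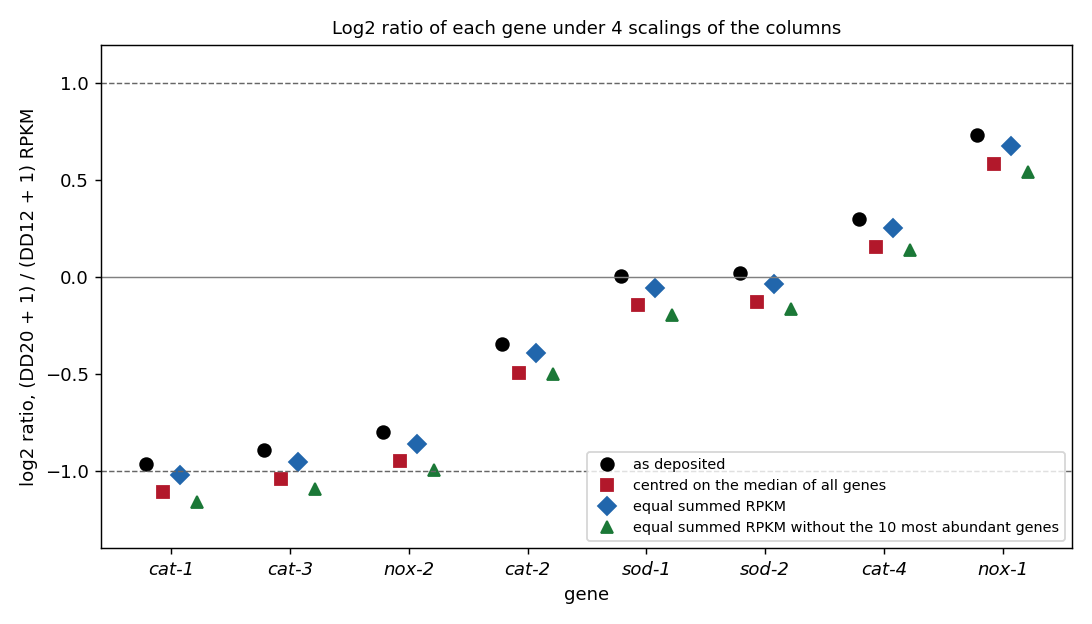
Log2 ratio of each gene under 4 scalings of the columns: as deposited (circles), centred on the median of all genes (squares), rescaled to equal summed RPKM (diamonds) and the same without the 10 most abundant genes (triangles). The ratios of cat-1, cat-3, nox-2 and cat-2 stay below 0 and those of cat-4 and nox-1 above 0 under all 4, while sod-1 and sod-2 are above 0 only as deposited, and cat-1 is past the 2-fold line (dashed) under the other 3.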

How the data were processed

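Expression by mRNA-seq was read from 1 table of RPKM values, which the authors deposited with 1 column per time point. The submitters' processing notes name CASAVA 1.8 and HISAT. The counting tool, gene models, strand handling and genome build are not given in the sources used here. Samples were assigned by their labels, and 0 columns were left unassigned.

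Genes were matched by symbol, synonym or locus tag to RefSeq assembly NC12 (10526 matched). Every gene of the list was named. The genes and lists were chosen with earlier results of these data known. The pairs of genes compared within a column, the neighbours and the matA genes were chosen after the values were seen.

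Library totals were taken as the number that makes reads whole, and gene lengths as whole numbers of at least 30 nt, up to the RefSeq span, that give whole reads in both columns within 0.003. Even numbers made up 65.4% (DD12) and 60.4% (DD20) of genes with 1 to 10 reads, so reads were divided by 2 for intervals. No count model was fitted. Differences were counted at 2-fold, with an added 1 RPKM, among genes with a mean of at least 1 RPKM. Python 3.11.15, pandas 2.3.3, numpy 2.4.6, scipy 1.17.1 and matplotlib 3.10.9 were used, and the steps were tested on simulated data. Alternatives were pseudocounts of 0.1 and 5, 3 other scalings, other filters, and shares of reads in place of RPKM.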

Additional observations from a re-analysis of the deposited data

How the results depend on the processing

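No paired analysis was possible because each time point has 1 column, and no replicate could be left out. Of 54 ratios of the 8 genes recomputed, 13 moved by more than the counting error and 6 changed sign, all of sod-1 or sod-2 and all under another scaling. For this count the error of cat-3 and cat-4 was that of their longest possible length. The interval given for cat-3 in the Results is wider, as it rests on the shortest length. With centred ratios the values were -1.11 (cat-1), -1.04 (cat-3), -0.15 (sod-1), 0.58 (nox-1) and -0.95 (nox-2). With equal summed RPKM they were -0.95 (cat-3) and -0.058 (sod-1). Without the 10 most abundant genes they were -1.16 (cat-1), -1.09 (cat-3), -0.20 (sod-1), -0.17 (sod-2), 0.54 (nox-1) and -0.995 (nox-2). The number of the 8 genes higher at DD12 by 2-fold was 0 as deposited, 2 with centred ratios, 1 with equal summed RPKM and 2 without the 10 most abundant genes, while the share of all genes past this limit was 2.33%, 3.45%, 2.66% and 3.61%. Centring subtracts 1 value from every ratio. Rescaling multiplies each column by 1 factor before the 1 RPKM is added, so the ratios of low genes shift less. The median of the 8 genes was -0.32 with centred ratios, -0.35 without the 10 most abundant genes and -0.40 in the 6 genes with a mean of at least 10 RPKM, where cat-2 and cat-4 drop out.

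Among all genes, the number higher at DD20 was 55. It became 99 and 29 when the pseudocount was 0.1 and 5, 31 after centring and 27 when the 10 most abundant genes were removed. The number higher at DD12 was 173. It became 91 when the pseudocount was 5, 267 when the 10 most abundant genes were removed, and 102 at a mean of at least 10 RPKM, where fewer genes pass. The median of all genes was 0 by construction with centred ratios, -0.028 without the 10 most abundant genes and 0.040 with no filter. Taken over reads in place of RPKM, the share of cat-3 was 74.8% at DD12 and 74.1% at DD20, that of sod-1 was 94.0% and 94.0%, that of nox-2 at DD12 was 70.8% and that of nox-1 at DD20 was 55.8%. These moved because reads weigh a long gene more. For cat-3 they rest on the longest of its 9 possible lengths, 3078 nt with 19161 reads at DD12, whereas the shortest, 342 nt, would give 2129 reads, fewer than the 5800 of cat-1. The shares of RPKM do not need a length. Depth limits cat-2 and cat-4, which had at most 429 reads, more than the other genes.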

Other observations

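Glutathione S-transferases, which join glutathione to reactive compounds, and thioredoxin, a small protein that reduces disulfides, were found under further symbols chosen after the table was seen. All 4 of these genes had a ratio below 0 and 0 passed 2-fold, against 0.742% (higher at DD20) and 2.33% (higher at DD12) of all expressed genes. The values were 45.0 RPKM at DD12 and 37.6 RPKM at DD20 for gst-2, 47.6 and 34.8 RPKM for gst-3, and 8.57 and 6.04 RPKM for gst-4. Their log2 ratios were -0.25, -0.44 and -0.44. The thioredoxin gene trx had 57.5 and 54.6 RPKM, a log2 ratio of -0.072, whereas the thioredoxin reductase gene cys-9 had one of 0.53. Of the expressed genes, 33.8% had a ratio below 0.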
